A study of Mus musculus with 4 samples.

Results

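The genes described here encode the machinery of the endoplasmic reticulum (ER) that folds secreted proteins, carries them across the ER membrane and removes the misfolded ones. A list of 38 genes was matched to the array by gene symbol, and each gene was represented by 1 probe set, the one with the highest mean log2 signal over the 4 arrays. Of the 38 genes, 37 were measured, out of 18193 genes measured on the array, and all 37 passed the filter on low signals that left 10475 genes to test. Sec61g, the gamma subunit of the Sec61 channel, had no probe set carrying its symbol alone and was not analysed here.

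The cells were 4 clones of J558, a plasmacytoma line of BALB/c origin that secretes IgA. In 2 clones the gene for activation-induced cytidine deaminase (AID), the deaminase behind hypermutation and class switching of antibody genes, had been targeted by a silencing construct, whereas 2 control clones had received the same vector without the targeting sequence. Every clone, control clones included, had also been transfected with a Neo vector and selected in G418. The titles arrange the clones as pair 1 and pair 2, each with 1 control and 1 AID-silenced clone, and the labels leave unsaid what the clones of a pair have in common. Each array held RNA of 1 clone, so every difference below is between single clones. The p-values measure the spread between the clones of a group, clonal and technical variation together. The main fits had no term for the other factor. In the comparison of AID-silenced with control clones this spread thus includes any difference between the pairs, and the reverse holds for the comparison of pairs.

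Immunoglobulin chains enter the ER through the Sec61 channel while they are being made, lose their signal peptide to signal peptidase, and are folded by Hsp70- and Hsp90-type chaperones, disulfide isomerases and lectin chaperones. Chains that fail to fold are sent back to the cytosol for ER-associated degradation. The load is sensed by IRE1alpha (encoded by Ern1), ATF6 and PERK; IRE1alpha splices the mRNA of Xbp1, and XBP1 and ATF6 raise the transcription of most genes of this machinery, which plasma cells hold at high levels to secrete antibody.

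All arrays had been scaled to a trimmed mean of 500, and their medians were 52.7 to 54.9. All 9 plasma cell markers examined were tested, with signals from 814 (Slamf7) to 51693 (Igha). Of 15 measured markers of mature B cells, T cells, myeloid cells and fibroblasts, 4 passed the filter (Ms4a1, Cd8a, Csf1r and Col1a2), and the defining genes Pax5, Cd3e, Cd14 and Col1a1 did not. The summed marker signals of the controls (pair 1, pair 2) and then of the AID-silenced clones (pair 1, pair 2) were 254.9, 203.3, 244.4 and 429.1 for mature B cells, 169.8, 201.1, 67.9 and 139 for T cells, 265.7, 328.9, 310.8 and 370.6 for myeloid cells, and 95, 120.1, 166.2 and 112.5 for fibroblasts. Most of the mature B cell sum in the AID-silenced clone of pair 2 was Ms4a1 (391.1), and most of each myeloid sum was Csf1r (212.6 to 292.9). In bulk RNA a smaller share of cells expressing a gene cannot be told apart from less RNA of it per cell.

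The promoters of several members carry a known control sequence, the ER stress element, which ATF6 and XBP1 recognise together with NF-Y. RefSeq promoter windows (assembly GRCm38.p6, 250 bases before to 50 bases after the gene start) were found for 30 of the 38 genes, Sec61g among them. Exact matches to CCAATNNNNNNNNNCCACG on either strand were present in 9 of these 30 genes, against 37 of 27025 genes in the table (0.137%). The 9 genes were Hspa5, Hsp90b1, Dnajc3, Creld2, Pdia6, Calr, Canx, Derl3 and Syvn1. The ER stress element II, ATTGGNCCACG, matched in Herpud1 and Dnajb11, against 12 of 27025 genes (0.0444%), and the core of the UPR element, TGACGTGG, matched in 0 of 30 genes, against 0.714% of all genes. The UPR element core and the ER stress element can overlap at the letters CGTGG. Of these matches, 6 genes are shown because they hold each form of match, on either strand, single or repeated, in genes whose values are given below. Each stretch is given on the gene's own strand, 5′ to 3′, with the matched bases in capitals; where the capitals begin with CGTGG, the element lies on the opposite strand. Hsp90b1 is the member with 2 matches.
Hspa5 (chr2:34772005-34772063, plus strand): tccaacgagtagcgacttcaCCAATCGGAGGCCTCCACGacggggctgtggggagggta
Hsp90b1 (chr10:86705513-86705676, minus strand): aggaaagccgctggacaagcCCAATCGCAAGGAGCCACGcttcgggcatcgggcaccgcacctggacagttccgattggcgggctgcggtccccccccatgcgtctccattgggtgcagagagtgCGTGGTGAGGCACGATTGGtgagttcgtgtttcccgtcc
Creld2 (chr15:88819500-88819558, plus strand): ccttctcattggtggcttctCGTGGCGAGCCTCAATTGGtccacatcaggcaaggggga
Calr (chr8:84847055-84847113, minus strand): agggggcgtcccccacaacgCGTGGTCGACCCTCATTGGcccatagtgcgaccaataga
Pdia6 (chr12:17266471-17266529, plus strand): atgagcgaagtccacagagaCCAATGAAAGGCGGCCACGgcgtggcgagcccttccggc
Herpud1 (chr8:94386357-94386407, plus strand): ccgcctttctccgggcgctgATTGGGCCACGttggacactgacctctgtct

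**Figure D1:**
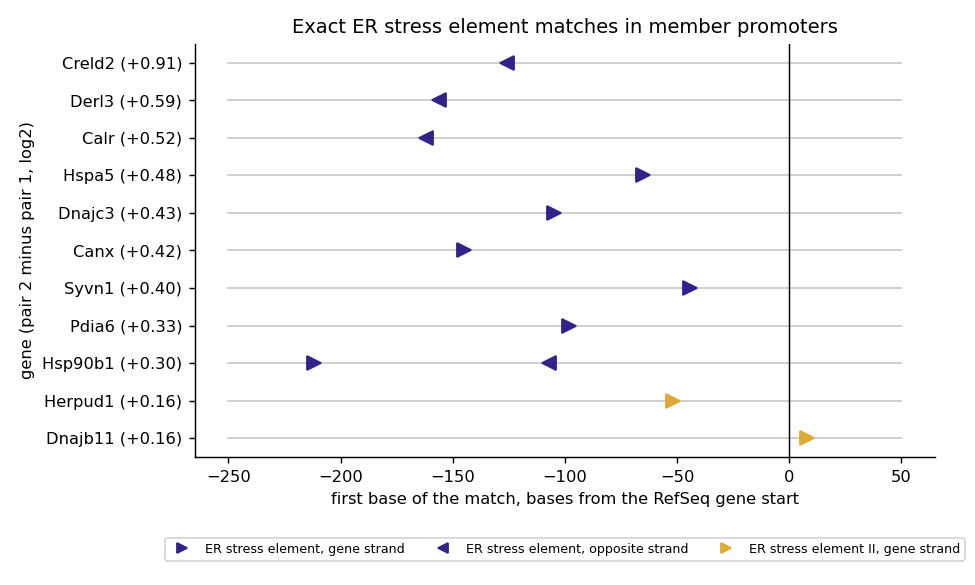
Exact matches to the ER stress element and the ER stress element II in the RefSeq promoter windows of the members, by distance in bases from the gene start (vertical line), with arrowheads for the strand. Genes are ordered by their mean log2 difference between pair 2 and pair 1, given in brackets, from 0.91 for Creld2 to 0.16 for Dnajb11 and Herpud1.

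The matches lay 44 bases (Syvn1) to 212 bases (Hsp90b1) before the gene start, except that of Dnajb11, which began at base 8 counted from the start. A match is a run of letters in the reference and does not show that a factor was bound in these clones.

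**Figure D2:**
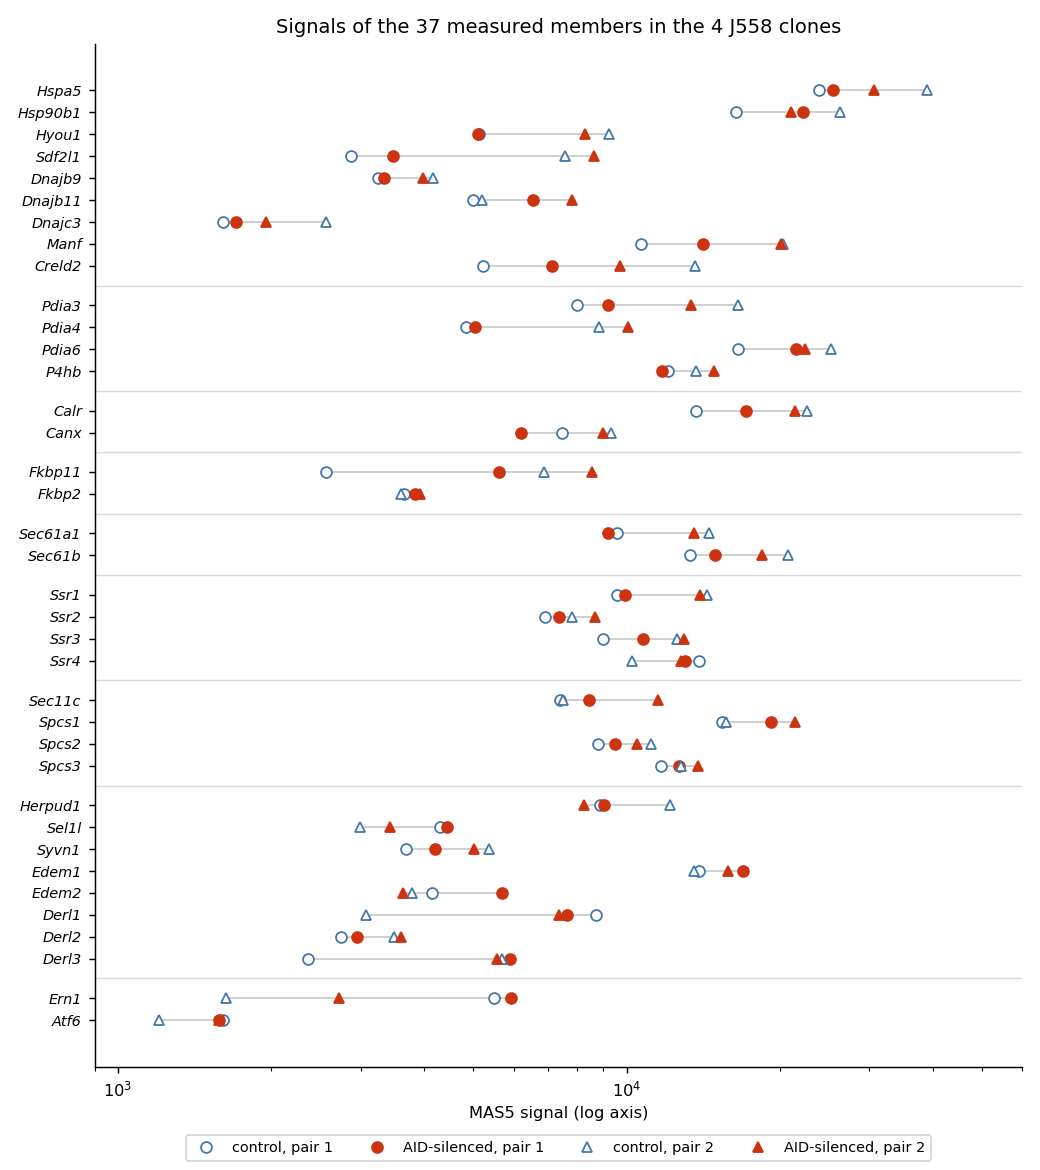
Signals of the 37 measured members in the 4 clones on a log axis, grouped by role; circles are pair 1, triangles pair 2, open symbols control and filled symbols AID-silenced clones, and each grey line spans the lowest to the highest clone. Triangles lie to the right of circles for 23 members, and the open circle, the control clone of pair 1, is the lowest point for 24.

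The comparison of AID-silenced with control clones asked which transcripts differed when AID was silenced. None of the 37 members was called at an adjusted p under 0.05 (limma, Benjamini-Hochberg over all probe sets tested), where 0.0191% of all tested genes were called. At an unadjusted p under 0.05 there was 1 member, Dnajb11, against 2.22% of all genes on the higher side. In 5 members both AID-silenced clones lay above both control clones, 13.5% of the members against 14.3% of all genes, and in 0 members did both lie below, against 14.4% of all genes. The count of 5 is near the background of all genes. The median member differed by 0.11 (log2, AID-silenced minus control) and the median of all tested genes by -0.005. Leaving out 1 clone sets a single clone of 1 pair against both pairs, in a fit with no pair term. The member median was -0.16 when the pair 1 control was dropped and -0.04 when the pair 2 AID-silenced clone was. In these 2 fits pair 2 weighed more on the control side. It was 0.20 on dropping the pair 1 AID-silenced clone and 0.25 on dropping the pair 2 control. Here pair 2 weighed more on the AID-silenced side. The members were higher in pair 2 (median 0.31, log2), so these shifts mix the pair difference with single clones. The part of each was not tested.

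The 5 members whose groups did not overlap came from several steps of the pathway. Dnajb11 encodes ERdj3, a co-chaperone that hands unfolded chains to BiP. Its signal was 4994 in the pair 1 control and 5187 in the pair 2 control, against 6547 and 7829 with AID silenced. Both AID-silenced clones were higher, by 0.49 ± 0.20 (log2 difference, SE, n = 2 clones in each group), with an unadjusted p of 0.0471 and an adjusted p of 0.9996 (limma). Spcs1, a subunit of signal peptidase, read 15418 and 15677 in the controls against 19191 and 21420 with AID silenced. The difference of 0.38 ± 0.17 (log2, SE) was 0.32 in pair 1 and 0.45 in pair 2. Sec11c, a catalytic subunit of the same enzyme, read 7407 and 7516 in the controls against 8419 and 11548 with AID silenced, a difference of 0.40 ± 0.22 (log2, SE).

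The control clones of these 3 genes lay close together, and the AID-silenced clones lay apart from them and from each other. The other signal peptidase subunits, Spcs2 and Spcs3, differed by 0.01 and 0.11 (log2), with overlapping groups. Edem1, a lectin that draws trimmed glycoproteins into degradation, read 13859 and 13557 in the controls against 16967 and 15800 with AID silenced. Both AID-silenced clones were above both controls, by 0.26 ± 0.17 (log2, SE). With the other probe set of Edem1 the difference was 0.30 (log2) and the groups overlapped. Fkbp2, an ER prolyl isomerase, had the smallest spread of the members, with 3648 and 3598 in the controls against 3844 and 3932 with AID silenced, a difference of 0.10 ± 0.20 (log2, SE). The adjusted p was 0.9996 for each of these genes (limma).

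The sign of the difference between AID-silenced and control clones was also compared between the 2 pairs. The difference was positive in both pairs for 14 members (37.8%, against 26.7% of all tested genes) and negative in both for 3 (8.11%, against 27.5%). The other 20 (54.1%) had opposite signs, against 45.7% of all tested genes. Some of these were near 0 in 1 pair, such as Manf (0.41 in pair 1, -0.01 in pair 2) and Atf6 (-0.02 and 0.39, log2). Of the 20, 16 were higher in the AID-silenced clone of pair 1 and lower in that of pair 2, and 4 were the reverse, where all tested genes split into 2448 and 2343. With 1 clone on each side of a pair, these differences have no replicate check. For the median member the AID-silenced minus control difference was 0.11 (log2) in pair 1, and -0.01 in pair 2.

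**Figure D3:**
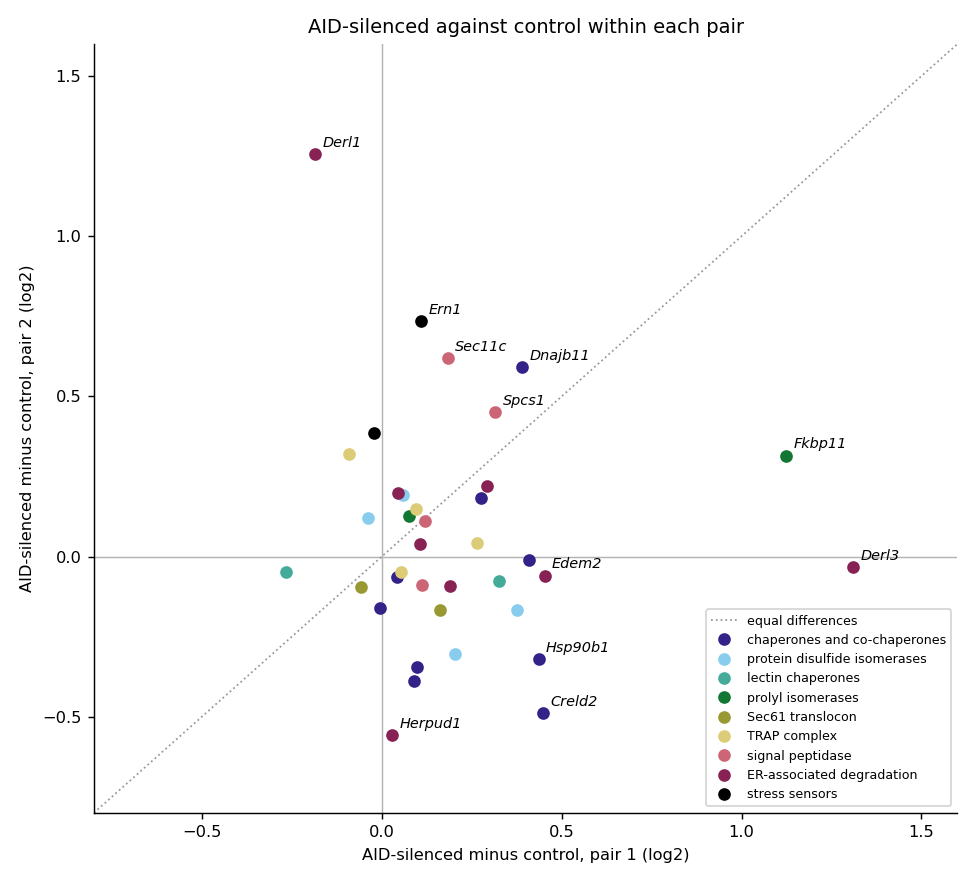
Log2 difference between the AID-silenced and the control clone of each of the 37 members, in pair 1 (x axis) and in pair 2 (y axis), coloured by role, with a dotted line for equal differences. Derl3 (1.31 and -0.03) and Derl1 (-0.18 and 1.26) lie far from the line on opposite sides, and Dnajb11, Spcs1 and Sec11c lie above 0 on both axes.

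Of the derlins, membrane proteins of the channel through which misfolded chains leave the ER, Derl1 and Derl3 had large differences in 1 pair and small ones in the other. Derl3 read 2368 in the pair 1 control, 5688 in the pair 2 control, and 5893 and 5555 with AID silenced (pair 1, pair 2). A single low clone, the control of pair 1, thus set the difference of 1.31 in pair 1, and the difference in pair 2 was -0.03 (log2). Derl1 read 8698, 3075, 7651 and 7373 in the same order. Here the control of pair 2 was the low clone, with differences of -0.18 in pair 1 and 1.26 in pair 2. The low control of pair 2 was seen with all 4 probe sets of Derl1, whose pair 2 differences ran from 1.13 to 1.26. Derl2 spanned 2748 to 3595 over the 4 clones, with differences of 0.11 in pair 1 and 0.04 in pair 2 (log2).

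Fkbp11, a prolyl isomerase of secretory cells, had the largest mean difference of any member, 0.72 ± 0.47 (log2, SE). Its signal was 2568 and 6881 in the controls (pair 1, pair 2) against 5614 and 8565 with AID silenced. The groups overlapped, because the control of pair 2 was above the AID-silenced clone of pair 1. Among the chaperones, Creld2 and Hsp90b1 (GRP94, the Hsp90 of the ER) differed by 0.45 and 0.44 in pair 1 and by -0.49 and -0.32 in pair 2 (log2, AID-silenced minus control). The other probe set of Hsp90b1 gave 0.25 in pair 1 and -0.06 in pair 2. Herpud1, which organises the degradation complex, differed by 0.03 in pair 1 and -0.56 in pair 2 (log2).

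The comparison of pair 2 with pair 1 regrouped the same 4 arrays by the number in the titles, so both comparisons share every array. None of the 37 members was called at an adjusted p under 0.05 (limma), and 0% of all tested genes were called. In 23 members both clones of pair 2 lay above both clones of pair 1, where 19.5% of all tested genes did so. In 5 members, Ssr4, Sel1l, Edem2, Derl1 and Ern1, both lay below, where 29.3% of all genes did so. At an unadjusted p under 0.05, 15 members were higher in pair 2, against 5.32% of all genes, and 2 (Sel1l and Ern1) were lower, against 10.2%. The median member differed by 0.31 (log2, pair 2 minus pair 1) and the median of all tested genes by -0.065. The member median was 0.46 between the control clones and 0.26 between the AID-silenced clones. The members were bright: their median percentile of mean signal among all measured genes was 97.5, against 71.2 for all tested genes. The shares of all tested genes, in either comparison, were not matched for brightness. The highest signal (control, AID-silenced) was 40604 and 43893 in pair 1 and 53071 and 46903 in pair 2. The part of brightness in the pair difference was not tested.

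**Figure D4:**
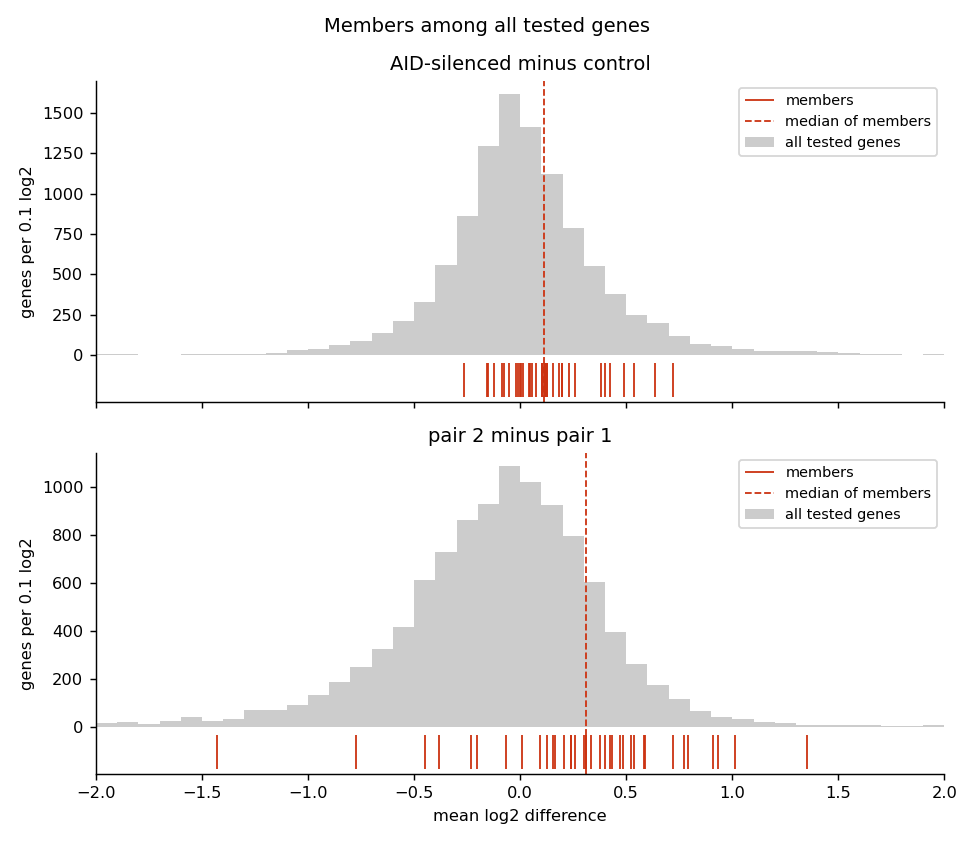
Histograms of the mean log2 difference over the 10475 tested genes (grey bars, 0.1 log2 wide), with each of the 37 members as a red tick and their median as a dashed line, for AID-silenced minus control (top) and pair 2 minus pair 1 (bottom). The axis covers -2 to 2, and genes beyond it are not drawn; the dashed line lies at 0.11 in the top panel and at 0.31 in the bottom panel.

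Some other measures moved with the pair. The ratio of the 3′ to the 5′ control probe sets of Actb, a sign of RNA integrity, was 1.27 in both clones of pair 1 and 1.12 and 1.04 in the control and AID-silenced clones of pair 2, while that of Gapdh was 0.81 and 0.78 in pair 1 and 0.78 and 0.79 in pair 2. Of the 9 plasma cell markers, Xbp1, Irf4, Jchain and Igha were higher in both clones of pair 2, against 19.5% of all tested genes. The pairs of the other 5 overlapped, where 29.3% of all tested genes were lower in both clones of pair 2, and Slamf7 was lower on average by -0.86 (log2). The summed signal of the 9 was 135657 and 148675 in pair 1 and 171617 and 175194 in pair 2, a sum in which bright genes such as Igha and Xbp1 weigh most. Both AID-silenced clones were above both controls for Slamf7 (0.98) and Prdm1 (0.50, log2), and below for 0 of the 9. Of all tested genes, 14.3% were above and 14.4% below in this way. The part of RNA integrity and of the plasma cell markers in the differences described here was not tested.

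The chaperones and co-chaperones were higher in both clones of pair 2 in 7 of 9 genes, against 19.5% of all tested genes. Sdf2l1, a partner of ER Hsp40 proteins, stood furthest apart, with 2870.3 and 3479 in the control and AID-silenced clones of pair 1 and 7581 and 8610.3 in those of pair 2. Both clones of pair 2 were more than 2-fold above both of pair 1, with a difference of 1.35 ± 0.17 (log2, SE, n = 2 clones in each group) and an adjusted p of 0.200, the lowest of any member (limma). With silencing status as a block the adjusted p of Sdf2l1 was 0.0777. Creld2, an ER-stress-induced protein with disulfide isomerase-like motifs, read 5229 and 7138 in pair 1 and 13616 and 9700 in pair 2, a difference of 0.91 ± 0.23 (log2, SE; adjusted p of 0.255, limma). The control clones were further apart than the AID-silenced clones, by 1.38 against 0.44 (log2).

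Hspa5 encodes BiP, the main Hsp70 of the ER, which binds free immunoglobulin heavy chains. It read 23846 and 25512 in pair 1 and 38900.4 and 30632 in pair 2, so that both clones of pair 2 were higher, by 0.48 ± 0.14 (log2, SE). The highest signal on the array of the control clone of pair 2 was 53070.5; whether readings this bright were compressed was not tested. Hyou1, a large Hsp70-like protein that exchanges the nucleotide of BiP, read 5120 and 5100 in pair 1 and 9246 and 8267 in pair 2. Manf, a secreted ER-stress protein that binds BiP, read 10655 and 14142 in pair 1 and 20297 and 20133 in pair 2. The clones of pair 2 were higher by 0.77 ± 0.14 for Hyou1 and by 0.72 ± 0.16 for Manf (log2, SE).

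Dnajb9 (ERdj4) and Dnajc3 (p58IPK), Hsp40 co-chaperones of BiP, were higher in both clones of pair 2 by smaller amounts, 0.31 ± 0.15 and 0.43 ± 0.20 (log2, SE). With the brightest probe set of each gene, Dnajb11 and Hsp90b1 were the chaperones whose pairs overlapped. Hsp90b1 read 16417 and 22218 in pair 1 and 26255 and 21023 in pair 2. The control clones were at the extremes and the AID-silenced clones between them. The other probe set of Hsp90b1 was higher in both clones of pair 2, by 0.24 (log2).

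All 4 disulfide isomerases, which form and rearrange the disulfide bonds that hold antibody chains together, were higher in both clones of pair 2, against 19.5% of all tested genes. Pdia4 (ERp72) read 4834 and 5033 in pair 1 and 8815 and 10082 in pair 2, a difference of 0.93 ± 0.14 (log2, SE; adjusted p of 0.242, limma). Pdia3 (ERp57), which works with the lectin chaperones, read 7995 and 9201 in pair 1 and 16523 and 13364 in pair 2, a difference of 0.79 ± 0.16 (log2, SE; adjusted p of 0.245, limma). Pdia6 and P4hb, the latter encoding protein disulfide isomerase itself, differed less, by 0.33 ± 0.15 and 0.26 ± 0.12 (log2, SE). The lectin chaperones calreticulin (Calr) and calnexin (Canx), which hold newly made glycoproteins, were likewise higher in both clones of pair 2, by 0.52 ± 0.14 and 0.42 ± 0.15 (log2, SE). Calr read 13669 and 17139 in pair 1 and 22584 and 21430.1 in pair 2.

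The prolyl isomerases diverged. Fkbp11 read 2568 and 5614 in pair 1 and 6881 and 8565 in pair 2, a difference of 1.01 ± 0.37 (log2, SE; adjusted p of 0.337, limma), and Fkbp2 differed by 0.01 ± 0.16. The pairs of Fkbp11 did not overlap, although its control clone in pair 1 was well below the other 3 clones.

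At the translocon, Sec61a1, which encodes the channel itself, read 9567 and 9193 in pair 1 and 14510 and 13591 in pair 2, and Sec61b, a small subunit, read 13333 and 14905 and then 20734 and 18473. Both were higher in pair 2, by 0.58 ± 0.12 and 0.47 ± 0.13 (log2, SE). The TRAP complex sits beside the channel and helps some chains to enter. Its subunits Ssr1, Ssr2 and Ssr3 were higher in both clones of pair 2, by 0.54 ± 0.12, 0.21 ± 0.14 and 0.37 ± 0.14 (log2, SE). Ssr4, the fourth subunit, went the other way: it read 13874 and 13027 in pair 1 and 10234 and 12775 in pair 2, a difference of -0.23 ± 0.15 (log2, SE). Of the signal peptidase subunits, Spcs2 and Spcs3 were higher in both clones of pair 2, by 0.24 ± 0.13 and 0.13 ± 0.12, and the pairs of Sec11c and Spcs1 overlapped. With quantile normalisation of the arrays, the mean differences of Fkbp2, Spcs1 and Spcs3 changed sign.

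Of the 8 degradation genes, 2 were higher in both clones of pair 2 and 3 were lower, near the 19.5% and 29.3% of all tested genes, with a median difference of 0.05 (log2). Syvn1, the ubiquitin ligase Hrd1, read 3680.1 and 4196 in pair 1 and 5358 and 5024 in pair 2, and was higher by 0.40 ± 0.16 (log2, SE). Its partner Sel1l, which stabilises the ligase, read 4304 and 4440 in pair 1 and 2986 and 3429 in pair 2, and was lower in both clones of pair 2 by -0.45 ± 0.16 (log2, SE). All 5 probe sets of Sel1l had lower means in pair 2, with differences from -0.55 to -0.34 (log2). The second probe set of Syvn1 differed by 0.13 (log2), with overlapping pairs and an adjusted p of 0.754 (limma), so the higher Syvn1 signal in pair 2 was seen without overlap with the brightest probe set alone.

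Edem2, which starts the mannose trimming of misfolded glycoproteins, read 4147 and 5683 in pair 1 and 3792 and 3638 in pair 2, a difference of -0.38 ± 0.20 (log2, SE). Derl1 was lower in pair 2 by -0.77 ± 0.40 (log2, SE), mostly through the control clone described above, and Derl2 was higher in both clones of pair 2 by 0.31 ± 0.16. With the brightest probe set of each gene, the pairs of Derl3, Herpud1 and Edem1 overlapped. The probe sets of Edem1 differed: the brightest gave -0.07 and the other -0.67 (log2, pair 2 minus pair 1). With that other probe set both clones of pair 2 were lower, with an adjusted p of 0.263 (limma).

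Of the stress sensors, Ern1 had the largest difference between pairs of any member. Its signal was 5491 and 5929 in the control and AID-silenced clones of pair 1 and 1629 and 2721 in those of pair 2. Both clones of pair 2 were below both of pair 1, by -1.43 ± 0.26 (log2, SE), a level 0.371 times that of pair 1, with an adjusted p of 0.245 (limma). All 5 probe sets of Ern1 had lower means in pair 2, with differences from -1.51 to -0.51 (log2). Within pair 2 the AID-silenced clone was above the control by 0.73 (log2). Atf6, the other sensor, read 1607 and 1581 in pair 1 and 1206 and 1582 in pair 2 with its brightest probe set, and the pairs overlapped. The other probe sets of Atf6, of similar brightness, were lower in both clones of pair 2. Their differences were -0.27 and -0.49 (log2), with adjusted p of 0.570 and 0.336 (limma). Probe sets count the transcript and say nothing on the splicing of Xbp1 or the cleavage of ATF6.

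**Figure D5:**
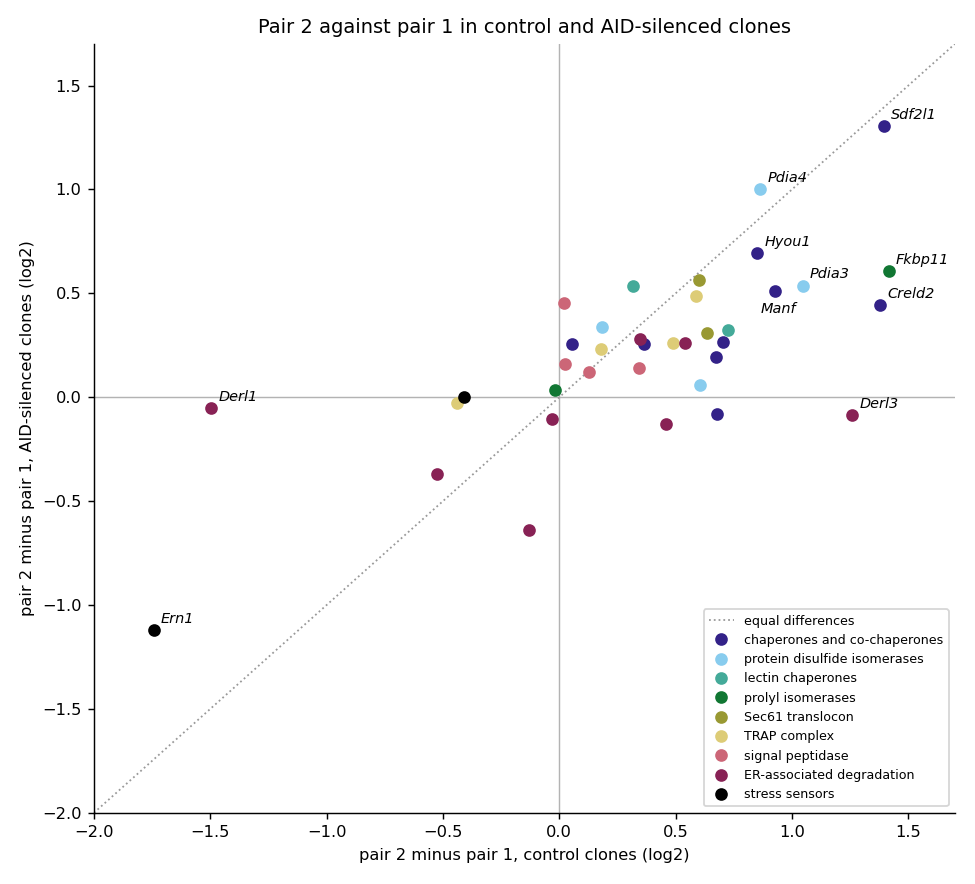
Log2 difference of pair 2 from pair 1 for each of the 37 members, between the control clones (x axis) and between the AID-silenced clones (y axis), coloured by role, with a dotted line for equal differences. Sdf2l1 (1.40 and 1.30) and Pdia4 (0.86 and 1.00) lie near the line, Ern1 (-1.74 and -1.12) lies low on both axes, and Derl1 (-1.50 and -0.05) and Derl3 (1.26 and -0.08) lie far from 0 on the x axis and near 0 on the y axis.

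Single clones often held the extremes. The control clone of pair 1 was the lowest of the 4 in 24 of 37 members (64.9%), against 20.6% of all tested genes, and the control clone of pair 2 was the highest in 17 (45.9%), against 25.2%. The AID-silenced clone of pair 2 was the highest in 12 members (32.4%, against 20.2% of all tested genes) and the lowest in 2 (5.41%, against 27.4%). The ratio of the highest to the lowest clone had a median of 1.55 over the members and 1.53 over all tested genes. It was largest for Ern1 (3.61), Fkbp11 (3.32), Sdf2l1 (2.99) and Derl1 (2.82) and smallest for Fkbp2 (1.09). In 23 members a second tested probe set was available, 47 in all; 46 of these had the same sign as the brightest in the comparison of pairs, and 28 had the same sign in the comparison of AID-silenced with control clones.

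The 9 members with an ER stress element in the promoter windows described above all had higher means in pair 2. Their differences ran from 0.30 to 0.91, with a median of 0.43 (log2). For 7 of the 9 the pairs did not overlap, where 19.5% of all tested genes were higher in both clones of pair 2. Hsp90b1 and Derl3, whose pairs overlapped, each differed by -0.08 (log2) between the AID-silenced clones. Of the 20 measured members whose windows held no such match, 15 had higher means in pair 2. Among these 20, 11 were higher without overlap and 4 lower, against 19.5% and 29.3% of all tested genes. Their differences ran from -1.43 to 1.35, with a median of 0.25 (log2). Sdf2l1 (1.35), Fkbp11 (1.01), Pdia4 (0.93) and Ern1 (-1.43) had no exact match, and Creld2 (0.91) had one. In the comparison of AID-silenced with control clones, the median was 0.05 with the element and 0.12 without (log2). These are descriptions of chosen genes, and the difference between the groups was not tested.

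A further 99 genes of the pathway were listed and 87 were tested. None was called in either comparison (limma), and at an unadjusted p under 0.05 there were 2 in the comparison of AID-silenced with control clones, against 407 of all 10475 tested genes, and 18 in that of the pairs, against 1621 of 10475. Both AID-silenced clones lay above both controls in 18 of the 87 and below in 8, against 14.3% and 14.4% of all tested genes. Both clones of pair 2 lay above pair 1 in 30 and below in 21, against 19.5% and 29.3%. These 4 shares of all genes are the background for each list below. The median differences were 0.04 (AID-silenced minus control) and 0.02 (pair 2 minus pair 1, log2).

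In the list of translocation and N-glycosylation, 16 of 23 genes were higher in both clones of pair 2 and 2 were lower, against 19.5% and 29.3% of all tested genes, with a median of 0.29 (log2). Srprb, which anchors the signal recognition particle receptor, was higher by 0.67, and the oligosaccharyltransferase subunits Dad1 and Stt3a by 0.65 and 0.54. Dad1 read 11581 and 12045 in pair 1 and 17364 and 19736 in pair 2. Srp72 and Krtcap2 were the 2 lower genes, by -0.42 and -0.22 (log2). With AID silenced, 2 genes of this list were higher in both clones and 1 was lower, against 14.3% and 14.4% of all tested genes.

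Of the other folding genes, 5 of 28 were higher and 9 lower in both clones of pair 2, near the 19.5% and 29.3% of all tested genes, with a median of -0.04 (log2). Tmx1 and Txndc5, which are disulfide isomerases, and Ppib, the prolyl isomerase cyclophilin B, were higher by 0.54, 0.44 and 0.41, while Fkbp7, Txndc12 and Cnpy3 were lower by -0.84, -0.51 and -0.47. In both AID-silenced clones 8 of the 28 were higher and 2 lower, against 14.3% and 14.4% of all tested genes. The higher ones included Txndc11 (0.59), Sil1 (0.52), a nucleotide exchange factor of BiP, and Ganab (0.44), the catalytic subunit of glucosidase II; the lower ones were Selenof (-0.23) and Uggt1 (-0.22), the sensor that returns misfolded glycoproteins to the lectin chaperones.

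Among 22 other degradation genes, 8 were higher and 6 lower in both clones of pair 2, against 19.5% and 29.3% of all tested genes. Ubxn8, Selenok and Vcp, the ATPase that pulls substrates from the membrane, were higher by 0.89, 0.71 and 0.53, and Rnf139, Ube2j1 and Erlec1 were lower by -0.69, -0.64 and -0.55 (log2). Vcp read 16472 and 15920 in pair 1 and 23965 and 22909 in pair 2. In both AID-silenced clones 5 were higher, led by Herpud2 (0.62), Ube2j2 (0.50) and Edem3 (0.49), and Bcap31 was lower (-0.36), against 14.3% and 14.4% of all tested genes.

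Of 14 stress regulators tested, 1 was higher and 4 were lower in both clones of pair 2, against 19.5% and 29.3% of all tested genes. Xbp1, the target of IRE1alpha, read 27279 and 33142 in pair 1 and 38028 and 38926 in pair 2, and was the 1 regulator higher in both clones of pair 2, by 0.36 (log2). Ddit3 (CHOP) and Trib3, known targets of ATF4 in the PERK arm and the amino acid response, were lower. Ddit3 read 2614 and 1746 in pair 1 and 761.3 and 523.9 in pair 2, and Trib3 read 4976 and 2454 in pair 1 and 1169 and 786.6 in pair 2. The differences were -1.73 and -1.85 (log2), each with an adjusted p of 0.245 (limma). Creb3l3 was lower by -1.21, mostly through the AID-silenced clone of pair 2 (19.3, against 131.9 to 157.1 in the other clones), and Mbtps2, which follows Mbtps1 in cleaving ATF6, by -0.38 (log2).

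In the comparison of AID-silenced with control clones, 3 of the 14 regulators were higher in both AID-silenced clones, against 14.3% of all tested genes: Mbtps1 (0.60), the protease that cleaves ATF6, Creb3 (0.25) and Eif2ak3 (0.23), which encodes PERK. The value of Mbtps1 rested on 1 low clone, the control of pair 1 (1317, against 2661 to 2881 in the other clones), with differences of 1.12 in pair 1 and 0.07 in pair 2. In both AID-silenced clones 4 were lower, against 14.4% of all tested genes, led by Ppp1r15a (-0.84), the phosphatase subunit that ends the PERK response, Chac1 (-0.62) and Atf4 (-0.20). Ppp1r15a read 2144 and 1808 in the controls against 1354 and 883.1 with AID silenced, with an unadjusted p of 0.0218 and an adjusted p of 0.9996 (limma).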

How the data were processed

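Total RNA of 4 J558 clones was hybridised to Affymetrix mouse arrays, 1 array per clone. Each deposited value is the linear intensity of a probe set; the submitters' processing notes name MAS5, and its settings are not given in the sources used here. The arrays shared a trimmed mean of 500 and were not normalised again.

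Here log2(signal + 16) was computed, which understates the differences of dim genes. The 64 control probe sets were left out, and a filter kept the brighter 0.5 by mean log2 signal (22519 probe sets, with a lower limit at a signal of about 49.4), which were tested with limma 3.58.1 (statmod 1.5.0, R 4.3.3; lmFit and eBayes, trended and robust) on all 4 arrays, and adjusted by Benjamini-Hochberg over all of them at 0.05. The step was tried on simulated data with independent noise and differences planted in 1 comparison at a time. That trial does not show how the fit behaves where the pairs also differ. Symbols come from the platform annotation, 1 probe set per gene. The number of arrays, 2 per group, limits the precision.

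Members and lists were chosen with earlier results of these data known. Full statistics were given for up to 6 members per comparison with the largest difference among those whose groups did not overlap, and further pathway genes were named up to 3 per list and direction by the same measure; the rest were named as members, and the further probe sets of Ern1, Derl1, Sel1l, Syvn1 and Edem1 and the genes Mbtps2 and Xbp1 after their values were seen.

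The pair numbers come from the titles. As a check, pair 2 minus pair 1 in the control and in the AID-silenced clones correlated across probe sets (r = 0.306, rho = 0.336; probe sets are not independent). The pair entered the fit only as an alternative, as a block. Promoter windows are RefSeq's (GRCm38.p6), searched with Python 3.11.15, and figures were drawn with matplotlib 3.10.9. The level of the silenced gene is not reported here.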

Additional observations from a re-analysis of the deposited data

How the results depend on the processing

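The settings tried were median scaling or quantile normalisation, a pseudocount of 1 or 64, no filter or the upper 0.25 of probe sets, the mean of all probe sets of a gene, a block, and leaving out each clone in turn. In every one of these, 0 members were called in either comparison. With the replicate block (the pair number in the fit) 8 probe sets were called between AID-silenced and control clones against 2 without it, 0 of them members, and the lowest member adjusted p was 0.538 (limma); the block changed no call among the members. With silencing status as a block, 4 probe sets were called between the pairs against 0, and the lowest member adjusted p was 0.0777 (limma). Quantile normalisation gave 18 members higher in both clones of pair 2 in place of 23, with a median of 0.20, and 7 higher in both AID-silenced clones in place of 5. When single clones were left out, the members higher in the AID-silenced clones numbered 9 to 26 and those lower 2 to 17. With 3 clones the groups overlap less readily than with 4, and the pairs are uneven between the groups. The median AID-silenced difference ran from -0.16 to 0.25. Between the pairs, 23 to 28 members were higher and 6 to 8 lower, with medians from 0.24 to 0.42. The matching shares of all tested genes were not computed with clones left out or with quantile normalisation. These counts therefore have no background to be read against. Without the AID-silenced clone of pair 2, 8 members were lower in pair 2, 59 probe sets were called between the pairs and the lowest member adjusted p was 0.0506 (limma); without the control clone of pair 1, 146 probe sets were called between AID-silenced and control clones, 0 of them members. The clone left alone in its group was then assumed to vary like the others. With 2 clones in a group, differences of the size seen here could not be separated from clonal variation, and the cause of these shifts was not tested.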
